A study of Schizosaccharomyces pombe with 22 samples.

Results

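Lariat branches that had a place in the study's full branch list and in none of its class lists were described here. A branch is a pair of positions, the 5′ site of an intron and the adenosine to which it was joined. Branches were kept when chromosome, 5′ site and branch point together matched no branch of the annotated, alternate or unannotated lists. Exon skips, which join the 5′ site of one annotated intron to a branch point inside a later intron of the same gene, were left out as well. Of 17799 branches, 1371 were left, beside 4301 annotated, 3731 alternate, 8113 unannotated and 283 exon skip branches. They are called unclassified branches below.

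The study grew the fission yeast Schizosaccharomyces pombe under heat shock, through diauxic shift and in rich media, and sequenced intron lariats and messenger RNA. Every lariat library, the rich media libraries included, came from a dbr1 deletion in a 972h- background, and cells outside heat shock grew at 30 °C. The labels state neither the temperature nor the length of the heat shock. Total RNA of each condition was cut from a gel as a long and a short fraction, with 2 replicates of each, which gave 12 lariat libraries or 4 per condition. The deposited lists give 1 sum of reads per condition, so no spread between replicates is known. The 10 RNA-seq libraries were not used here.

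In splicing, the 5′ end of an intron is cut and joined to an adenosine near the 3′ end of the intron, which closes the intron into a loop with a tail, the lariat. Dbr1 is the enzyme that opens this loop, and cells without it accumulate lariats. In fission yeast most introns begin with GTA and carry a G as the fifth base, and the branch adenosine usually lies within a short CTAAC-like stretch.

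Of the 1371 unclassified branches, 801 (58.4%, 95% Wilson interval 55.8 to 61) joined a branch point inside an annotated intron to a 5′ site lying 1 to 5 bases from the one the study lists for that intron. These shifted sites held 28291 of 39954 unclassified reads (70.8%). The next sequences show the forms that carried most of these reads, each printed 5′ to 3′ on the transcribed strand from the RefSeq reference ASM294v3, with the GT of the used site in capitals. They lie at chrIII:2089505-2089529 (plus strand, sac3), chrII:969947-969971 (minus strand, SPBP35G2.04c), chrI:346527-346551 (minus strand, efg1) and chrI:2746420-2746444 (minus strand, rps13). For each gene the unclassified site is given before the listed one.
sac3, unclassified site: ttacgaaaagGTagtaaacttaaaa
sac3, listed site: ttacgaaaaggtaGTaaacttaaaa
SPBP35G2.04c, unclassified site: tttgaaatgtGTgtgtaattataag
SPBP35G2.04c, listed site: tttgaaatGTgtgtgtaattataag
efg1, unclassified site: tgaaaaaggtGTgtaatttttttgc
efg1, listed site: tgaaaaagGTgtgtaatttttttgc
rps13, unclassified site: tcactggtatGTtaaatttattctc
rps13, listed site: tcactgGTatgttaaatttattctc

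The branch points used from these sites and from gna1, the second largest unclassified branch, are shown with the branch adenosine in capitals. They lie at chrIII:2089598-2089618 (plus strand, sac3), chrI:3505291-3505311 (plus strand, gna1), chrI:2746338-2746358 and chrI:2746332-2746352 (minus strand, both of rps13).
sac3, branch point: tttatcatactaAccttttag
gna1, branch point: tacctattactaAtatttaga
rps13, main branch point: aactcaattctaActttgaat
rps13, other branch point: attctaactttgAataggtca

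One distance accounted for most shifted sites. The GT lay 4 bases inside the listed intron, as its bases 5 and 6, in 682 branches (49.7% of the unclassified), which came from 541 introns of 494 genes and held 11545 reads. By comparison 24 branches lay 5 bases inside, 12 lay 2 bases inside, and 22, 12, 32 and 17 lay 2, 3, 4 and 5 bases out in the exon. From 6 to 12 bases away, 21 unclassified branches lay inside the intron and 5 in the exon, with 50 reads in all, of which atp1, an ATP synthase subunit gene, had 9 at 6 bases inside. The alternate list held no branch at 1 to 5 bases. It held 22 branches at 6 bases inside, where 6 were unclassified, and 7 at 6 bases out, where none was.

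A GT also occurred more often 4 bases inside than anywhere else near the site, since 1845 of 2812 introns with lariat reads (65.6%) had one there, against 58 introns with a GT at 5 bases and 17 at 2 bases inside. Per intron that had a GT at the place, unclassified branches were found in 541 of 1845 at 4 bases inside (29.3%), in 17 of 58 at 5 bases inside (29.3%), and in 10 of 17 at 2 bases inside (58.8%). On the exon side the shares were 28.8% of 73 introns at 2 bases, 15.9% of 69 at 3 bases, 42.4% of 59 at 4 bases and 13.7% of 102 at 5 bases. The place 4 bases inside thus led by number and not by share of the introns that could show it.

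**Figure D1:**
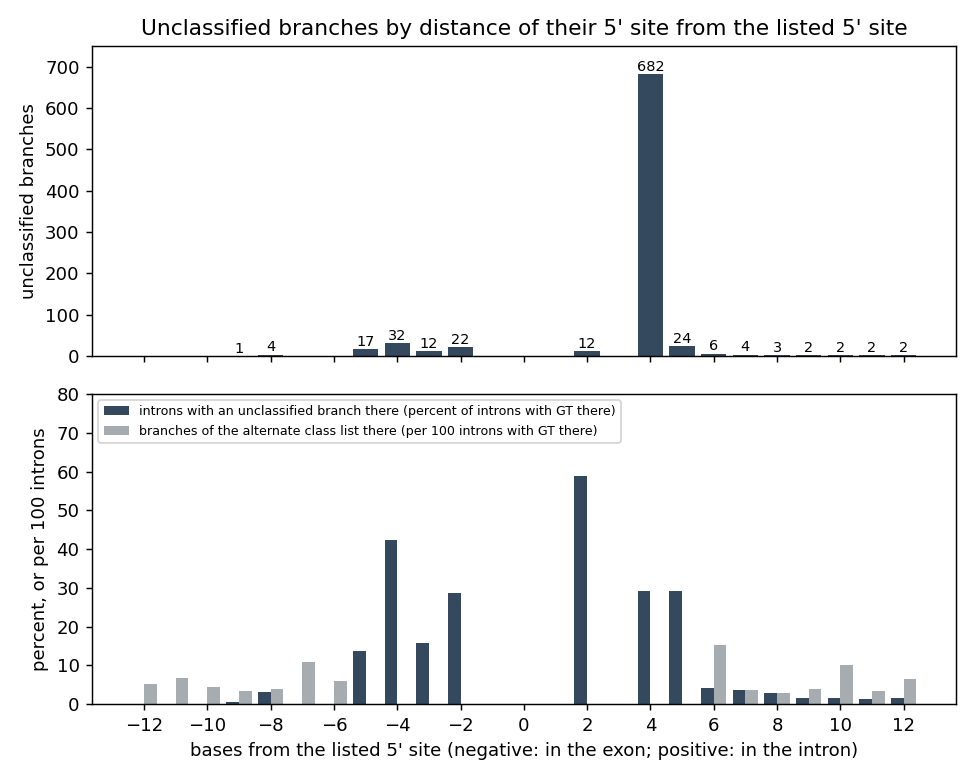
Unclassified branches by the distance in bases between their 5′ site and the listed 5′ site of the intron that holds their branch point (upper panel, number of branches), and the same as a percent of introns with lariat reads that have a GT at that distance (lower panel, dark), beside branches of the alternate list per 100 such introns (grey). The 682 branches at 4 bases inside stand above all other distances in number, and the 10 of 17 introns at 2 bases inside give the highest share, 58.8%.

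Whether a site 4 bases inside was seen followed how deeply the intron was read. It was seen in 271 of 376 introns with a GT there and at least 1000 reads at the listed site (72.1%, Wilson interval 67.3 to 76.4). The share was 39.3% of 550 introns with at least 100 but under 1000 reads, 9.98% of 481 introns with 10 to 99 reads and 1.37% of 438 introns with 1 to 9 reads. Across the 541 introns with such a branch, reads at the unclassified and the listed site had a Spearman rho of 0.566, given as a description, since both counts come from the same libraries and genes. For introns read fewer than 100 times, a site used at the usual share was not detectable at this depth.

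Most of these branches closed on branch points already known for the intron. Of the 682, 584 (85.6%) used a branch point that was also found from the listed site, and 492 (72.1%), with 79.2% of the reads, used the branch point most often read from it. Single reads made up 204 of the 682. Among the 376 deeply read introns the site 4 bases inside took a median of 0.14% of the reads of both sites, with none in 105 introns, an upper quartile of 0.517% and a maximum of 5.83% in rpp103, which encodes a ribosomal stalk protein.

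**Figure D2:**
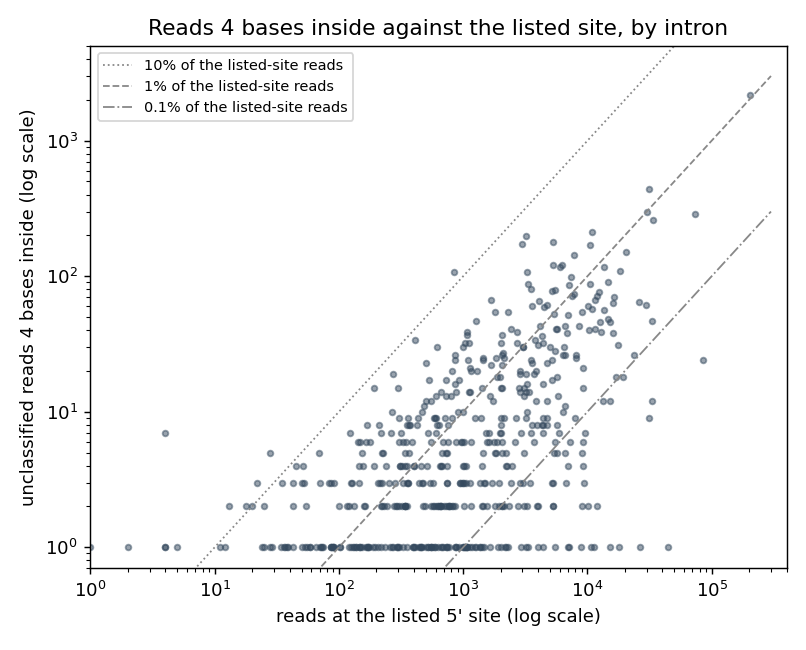
Reads at the unclassified site 4 bases inside (vertical, log scale) against reads at the listed 5′ site (horizontal, log scale) for the introns with such a branch, all conditions summed, with lines at 10%, 1% and 0.1% of the listed reads. No intron with over 1000 listed reads lies above the line at 10%, and rps13 is the point farthest to the upper right.

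The intron of rps13, which encodes a protein of the small ribosomal subunit, gave the most reads of this form. Intron 1 lies at chrI:2746336-2746438 on the minus strand. Its site 4 bases inside had 458 reads in heat shock, 1167 in diauxic shift and 560 in rich media, beside 23623, 137953 and 41708 reads at the listed site. The unclassified site thus took 1.9% of both sites in heat shock, 0.839% in diauxic shift and 1.32% in rich media, and the order of the shares differed from the order of the reads. Its main branch point had 299, 943 and 452 reads, and the other, 6 bases further on, had 159, 224 and 108. From the listed site this other branch point had 0 reads, among 203284 in the intron.

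The share of reads at the site 4 bases inside was higher in heat shock than in diauxic shift or rich media. Summed over 346 introns with at least 1000 listed reads and complete counts, it was 0.796% in heat shock (2205 reads beside 274819, Wilson interval 0.764 to 0.83). In diauxic shift it was 0.402% (3646 beside 902787, 0.389 to 0.415), and in rich media 0.427% (3167 beside 738481, 0.412 to 0.442). The quotient of unclassified to listed reads was 1.87 times that of rich media in heat shock (exact 95% counting interval 1.77 to 1.98) and 0.942 times in diauxic shift (0.898 to 0.988). These intervals, like all here, cover counting error only: PCR copies could not be told apart, and the spread between cultures is not in them.

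The heat shock difference was not carried by rps13, without which the quotient was 1.86 times that of rich media (1.75 to 1.98). Restricted to branch points also found from the listed site it was 1.75 times (1.66 to 1.86). The inner site had at least 50 reads over all conditions in 42 introns. Their share in heat shock was above that in rich media in 36, and their share in diauxic shift in 15. The limit of 50 used the same inner reads that enter the shares, so these counts only describe the introns picked. The median shares over these 42 introns were 1.85%, 0.951% and 1%. Across all introns with at least 100 reads in both conditions the split was more even: 114 of 311 introns had a higher share in heat shock, 102 a lower one and 95 an equal one. For diauxic shift 98 of 332 were higher, 140 lower and 94 equal. At 0.14%, the median share of the 376 deeply read introns, an intron with 100 listed reads mostly gives no inner read. Heat shock had the fewest reads. The part of depth in these splits was not tested.

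Ribosomal protein genes and a few others showed the pattern at single introns. Rps2602, a small subunit protein, had a share of 4.83% in heat shock, 1.35% in diauxic shift and 1.77% in rich media, from 67, 96 and 48 reads. Ump1, a proteasome assembly factor, had 2.9%, 1.21% and 1.53%, from 75, 294 and 74 reads. In sce3, a translation initiation factor, the share was 3.46%, 1.77% and 0.83%, from 81, 28 and 12 reads. All 3 were highest in heat shock, while diauxic shift lay below rich media in rps2602 and ump1 and above it in sce3. Among the 42 introns rpp103 was highest in heat shock and in diauxic shift, at 7.39%, 4.8% and 4.58% from 106, 52 and 41 reads, while rps3002 was highest in rich media, at 4.99%. The introns outside the 36 included wdr7, with 0.243% in heat shock and 2.62% in rich media, from 1 and 71 reads. Another was lat1, with 1.24% and 3.64%, from 3 and 50 reads.

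**Figure D3:**
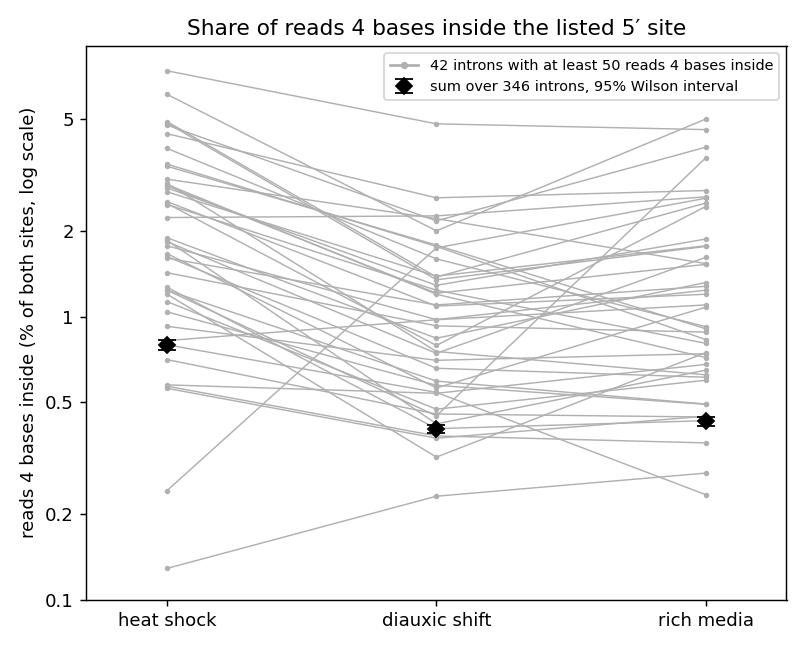
Share of reads at the site 4 bases inside, as a percent of the reads at both sites (log scale), in heat shock, diauxic shift and rich media. Grey lines are the 42 introns with at least 50 reads at the inner site and black diamonds the sum over 346 introns with 95% Wilson intervals, which stand at 0.796%, 0.402% and 0.427%.

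The share also varied with the first bases of the intron. Introns that begin with GTAAGT had 0.44% of reads at the inner site (164 introns) and those with GTATGT 0.43% (130 introns), the second with 51.2% of its inner reads from rps13. GTACGT introns stood at 0.216% (48 introns) and GTAGGT introns at 0.675% (15 introns), where ump1 gave 48.3% of the inner reads. Medians over introns were 0.234% for GTAAGT, 0.11% for GTATGT, 0.025% for GTACGT and 0.143% for GTAGGT.

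At other distances a few introns were read mainly from the unclassified site. Of 195 intron and distance pairs with at least 10 unclassified reads, 4 had more than 50% of the reads at the unclassified site, 14 had more than 10% and 96 had under 1%. Sac3, a factor of messenger RNA export, held the largest unclassified branch: in intron 2, listed at chrIII:2089518-2089618, the site 3 bases out in the exon had 636 reads in heat shock, 6365 in diauxic shift and 3386 in rich media. The listed site had 15, 218 and 137 reads. The unclassified site therefore took 97.7% (Wilson interval 96.2 to 98.6), 96.7% (96.2 to 97.1) and 96.1% (95.4 to 96.7). The 3 intervals overlapped, although the reads differed widely.

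Introns of 3 genes, whose listed sites read GTGTGT, were split between the listed site and the GT 2 bases inside it. In SPBP35G2.04c, whose product is uncharacterised, the inner site took 67.7% in heat shock, 63.8% in diauxic shift and 66.6% in rich media, from 287, 816 and 1342 reads. In efg1, an rRNA processing factor, it took 40.5%, 31.5% and 40.2%, from 149, 758 and 1243 reads. In mis14, a kinetochore subunit, it took 14.9%, 13.6% and 18.2%, from 17, 41 and 415 reads. Within each intron the intervals of heat shock and rich media overlapped, and in efg1 diauxic shift (29.6 to 33.3) lay below rich media (38.5 to 41.9).

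Introns with fewer reads at such a site included some whose shares differed between conditions. The NuA4 subunit gene eaf7, with a site 4 bases out in the exon, had a share of 28.2% (Wilson interval 21.2 to 36.5) in heat shock, 38.8% (31.9 to 46.1) in diauxic shift and 16.4% (13.8 to 19.4) in rich media. In SPAC6G9.01c, with a site 3 bases out, the shares were 3.57% (2.64 to 4.83), 1.15% (0.83 to 1.58) and 0.326% (0.211 to 0.503), from 40, 36 and 20 reads. Both were lowest in rich media, and in SPAC6G9.01c no interval touched another. The SUMO gene pmt3 had 0.782%, 0.604% and 1.52% at a site 2 bases inside, highest in rich media. The telomerase gene trt1 (26 reads 5 bases inside beside 7 at the listed site, 78.8%) and the cyclin gene puc1 (10 reads 4 bases out beside 2, 83.3%) were the other introns read mainly from the unclassified site. Eaf7, SPAC6G9.01c, pmt3, trt1 and puc1 were named after their values were seen.

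**Figure D4:**
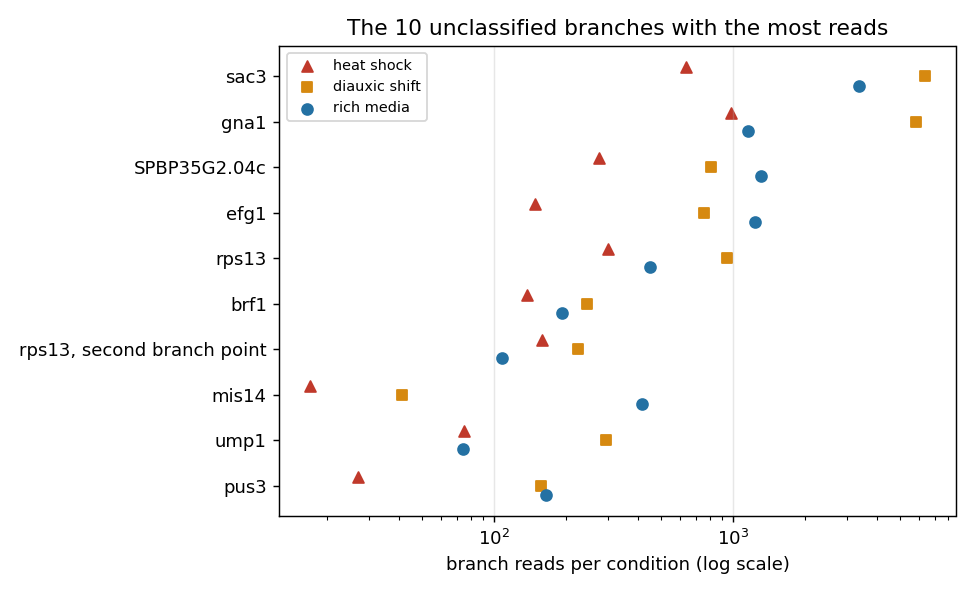
Reads in heat shock (triangles), diauxic shift (squares) and rich media (circles) of the 10 unclassified branches with the most reads, on a log scale. The reads are not scaled. By these reads diauxic shift is highest in sac3, gna1, both rps13 branches, brf1 and ump1, and rich media is highest in SPBP35G2.04c, efg1, mis14 and pus3. Scaled by annotated reads, heat shock was highest in brf1, at 2.16 times rich media against 1.25 times in diauxic shift. It was also highest in the second rps13 branch, at 4.42 against 2.02 times.

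Among the unclassified, 10 branches began exactly at a listed 5′ site and ended inside that intron. They lay in 7 introns, all of which the study's intron list gives without lariat reads, and held 8223 reads. Gna1, which encodes an enzyme of amino sugar synthesis, had 4 of them in intron 1 (chrI:3505210-3505310, plus strand) with 8012 reads. Its main branch at 3505303 had 981 reads in heat shock, 5849 in diauxic shift and 1155 in rich media. Set against the annotated reads of each condition, this was 2.55 times rich media in heat shock (counting interval 2.34 to 2.78) and 4.93 times in diauxic shift (4.63 to 5.26). The branch point reads CTAAT, as shown above.

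Vrp1, an actin-binding verprolin, had a branch of the same kind in intron 3 (chrII:3057997-3058075, plus strand), with 24 reads in heat shock, 38 in diauxic shift and 123 in rich media. The neighbouring gene brf1, a subunit of the RNA polymerase III factor TFIIIB, runs the other way and its branch ended 4 bases inside the vrp1 intron on the opposite strand. That branch, from 3058217 to 3058072, had 138, 246 and 192 reads. It starts at the 5′ site of an intron of brf1 in the reference annotation (chrII:3058061-3058217). The study's list, as used here, names introns 1 and 3 of brf1, at chrII:3058331-3058391 and chrII:3056265-3056370, and neither starts at that site. Brf1 was 2.16 times rich media in heat shock (1.72 to 2.7) and 1.25 times in diauxic shift (1.03 to 1.51), whereas vrp1 was 0.585 times (0.361 to 0.912) and 0.301 times (0.203 to 0.436).

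The remaining branches fell into smaller position classes. No listed intron was in contact with 167 branches (12.2%, 1396 reads), and 95 joined a site further up in the exon to a branch point in the intron (6.93%, 371 reads). A listed intron on the opposite strand was overlapped by 86 (6.27%, 928 reads, 576 of them from the largest brf1 branch). Both sites lay inside 1 intron in 85 (6.2%, 220 reads), and 63 ran past the end of the intron (4.6%, 120 reads). A site inside an earlier intron was used in 36 branches, a shifted site of an earlier intron in 14, and a listed site with a branch point past the intron in 14.

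Of the 167 branches in contact with no listed intron, 122 touched an intron of the reference annotation and 45 (272 reads) did not. The 56 listed introns that could not be placed were not compared. Pus3, a tRNA pseudouridine synthase, had 27, 158 and 165 reads at a branch starting 14 bases inside a reference intron (chrIII:671167-671272, minus strand). The Rab GTPase gene ypt1 had 1, 7 and 57 reads over a span of 45 bases. The ypt1 branch started 3 bases inside a reference intron (chrII:2933000-2933167, plus strand). Pom34, a nuclear pore protein, had 5, 63 and 11 reads, and its nearest listed intron was 10730 bases away. Pus3 was thus low in heat shock alone, ypt1 high in rich media alone and pom34 high in diauxic shift alone.

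Among branches from an exon or an earlier intron the reads were few. In rpl2502, a large subunit protein gene, a site 26 bases out in the exon joined a branch point of the intron with 26 reads in heat shock, 51 in diauxic shift and 13 in rich media. Srp2, an RNA-binding SR-like protein, had 2, 2 and 43 reads from a site 41 bases before the intron that held the branch point. The GPI mannosyltransferase gene gpi18 had 17, 29 and 22, and the DNA repair gene nbs1 had 0, 21 and 18. Dsc2, a Golgi ubiquitin ligase subunit, had 24, 10 and 5 reads where the listed site had 109, 250 and 255. No condition was highest in all of these genes.

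Summed over the 95 branches from the exon, heat shock was 2.72 times rich media (2.08 to 3.56) and diauxic shift 1.18 times (0.918 to 1.51). Opposite-strand branches summed to 2.06 times (1.73 to 2.46) and 1.23 times (1.06 to 1.44), with most reads from brf1. Branches with no listed intron in contact summed to 0.841 times (0.71 to 0.991) and 0.813 times (0.725 to 0.911). Because the libraries keep no strand, the strand of a branch is known only from its GT and adenosine. A branch on the other strand over the same span, within 5 bases at each end, was found for 22 unclassified branches (1.6%), 16 of them in the opposite-strand class, against 651 of 8113 unannotated branches (8.02%) and none of the annotated ones.

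Unclassified branches spanned longer distances than annotated ones and shorter ones than exon skips. The distance from 5′ site to branch point had a median of 97 bases (quartiles 75 and 147, range 24 to 500) in the unclassified, against 74 bases (upper quartile 108, range 23 to 495) in the annotated. Shifted branches had a median of 88 bases and the other 570 a median of 112, of which 24.7% were over 200 bases, against 5.67% of annotated branches. Over 300 bases lay 93 unclassified branches (6.78%), against 29 annotated ones (0.674%). Exon skip branches had a median of 155 bases, with 8.48% over 300. Alternate branches had a median of 90 bases, close to that of the shifted ones, and unannotated branches 85, with 0.965% and 0.456% over 300. Weighted by reads the medians were 93 and 88 bases.

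**Figure D5:**
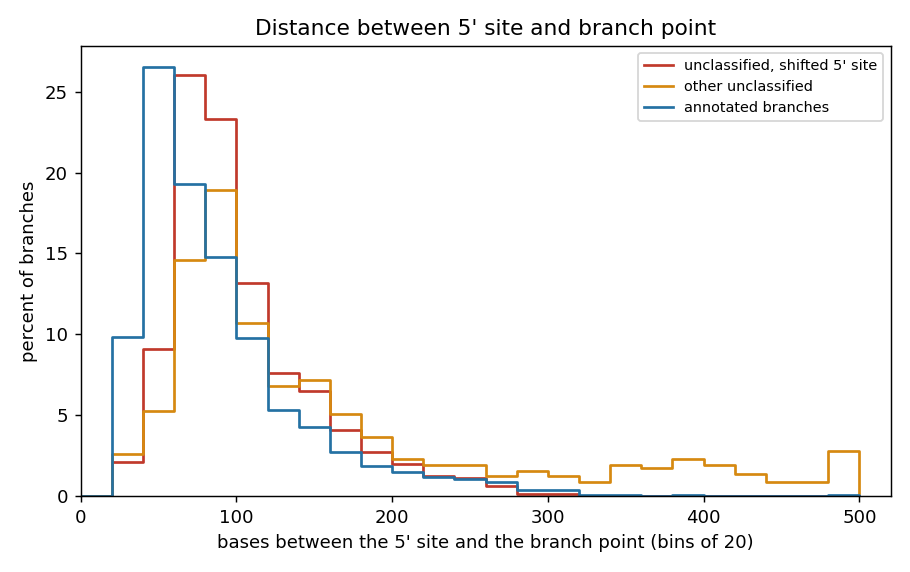
Percent of branches by the distance in bases between 5′ site and branch point, in bins of 20 bases, for unclassified branches with a shifted 5′ site, other unclassified branches, and annotated branches. The curve of the other unclassified branches has the long tail, with 24.7% over 200 bases against 4.99% of shifted and 5.67% of annotated branches.

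The shortest branches with at least 10 reads were in the non-coding RNA prl57 (38 bases), the large subunit protein gene rpl3702 (40 bases), mpo1 (44 bases), ypt1 (45 bases) and the telomerase regulator est1 (47 bases). The longest were in a non-coding RNA, SPNCRNA.4763 (489 bases), the U6 snRNP gene lsm5 (457 bases), the casein kinase gene hhp2 (430 and 402 bases, to 1 branch point) and the SNARE gene ufe1 (340 bases). Reads were low throughout: lsm5 had 9, 5 and 1, hhp2 had 6, 7 and 3 and then 4, 16 and 2, and ufe1 had 10, 5 and 2. Rpl3702 had 11 reads in heat shock, none in diauxic shift and 30 in rich media, beside 511, 89 and 5002 at its listed site.

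Most unclassified branches lay in or beside genes with introns. Protein-coding genes held 1282 (93.5%), non-coding RNA genes 60, and 27 lay in no gene. Both sites were in the same gene in 1283 (93.6%) and in different genes in 5. The span overlapped a listed intron of the same strand in 1141 (83.2%), and 105 (7.66%) lay over 1000 bases from one. The branch point was shared with a classified branch in 845 (61.6%) and the 5′ site in 110 (8.02%). Of 1118 in contact with a listed intron, 600 (53.7%) touched the first intron of the gene, which makes up 48.8% of listed introns with reads.

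Several genes held many. Cpc2, the yeast RACK1 protein of the ribosome, had 10 branches with 200 reads, rpl2502 had 9 with 107 reads, and SPBC11C11.01, annotated as a U2-associated protein, had 9 with 72 reads. Rpp102, a ribosomal stalk protein, had 7 with 33 reads and put2, an enzyme of proline breakdown, had 6 with 293. Branches of 1 gene share their transcript, so they are not independent of each other. The largest cpc2 branch, 4 bases inside its intron, had 15 reads in heat shock, 30 in diauxic shift and 115 in rich media. That was 0.391 times rich media in heat shock (0.212 to 0.673) and 0.254 times in diauxic shift (0.164 to 0.382). The largest put2 branch, of the same form, had 45, 86 and 104 reads, and the largest of rpp102 had 12, 10 and 2. For put2 the heat shock value was 1.3 times rich media (0.894 to 1.86) and the diauxic shift value 0.805 times (0.598 to 1.08). Cpc2 was thus highest in rich media and rpp102 lowest there, while for put2 both intervals held 1.

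Several smaller branches were read almost only in rich media. Prl57, a polyadenylated non-coding RNA, had 0, 1 and 31 reads at its largest branch, which starts 13 bases out in the exon. Mpo1, a fatty acid alpha-oxygenase, had 2, 2 and 35 reads, and est1 had 1, 1 and 18, both in contact with no listed intron. The est1 branch started 14 bases out from a reference intron and ended inside it. All 3 were highest in rich media, although annotated reads were 1322943 in diauxic shift and 1287956 in rich media. Did2, an ESCRT-III subunit, had 1, 22 and 20 reads, and the non-coding RNA SPNCRNA.2121 had 8, 55 and 55 on the strand opposite to an intron. Coq4, a protein of ubiquinone synthesis, had 10, 7 and 31 reads at a site 13 bases inside its intron, and lig4, a DNA ligase, had 3, 8 and 4 at a branch that ran past its intron.

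Reads were concentrated in few branches. The 2 largest, sac3 and gna1, held 18372 reads (46%) and the 10 largest 26948 (67.4%), while 556 branches (40.6%) had 1 read and 274 had at least 10. Single reads made up 39% of all branches, 45.5% of alternate, 45.9% of unannotated, 47.7% of exon skip and 19.3% of annotated ones. The median was 2 reads, against 14 in annotated branches. Over all branches, and in the alternate, unannotated and exon skip classes, it was 2 as well.

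Unclassified branches made up a small share of all branch reads in each condition. They had 5807 of 483168 reads in heat shock (1.2%, Wilson interval 1.17 to 1.23), 20249 of 1466614 in diauxic shift (1.38%, 1.36 to 1.4) and 13856 of 1420966 in rich media (0.975%, 0.959 to 0.991). Per 10000 annotated reads this was 135, 153 and 108. The libraries behind these sums had 9467948, 9854589 and 53284863 reads, so rich media was read most deeply and gave the lowest yield of branch reads. Branches with incomplete condition counts are left out of these sums and of the annotated reads used for scaling. They held 11.1% of all deposited reads, 11.8% of annotated and 0.105% of unclassified ones. Their reads by condition are not known, and no interval covers this. Over the deposited totals the unclassified share was 1.05%.

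Relative to annotated reads, the summed unclassified reads were 1.26 times rich media in heat shock (1.22 to 1.3) and 1.42 times in diauxic shift (1.39 to 1.45). The diauxic shift value rested on sac3 and gna1, without whose largest branches it was 0.84 (0.815 to 0.865), while heat shock was then 1.35 (1.3 to 1.4). The 682 branches at 4 bases inside stood at 2.02 times (1.92 to 2.12) in heat shock and 1.06 times (1.02 to 1.11) in diauxic shift. By number, 507 branches were higher and 571 lower in heat shock, and 549 higher and 663 lower in diauxic shift. Branches with few reads weigh on these counts. Among the 274 with at least 10 reads, 165 were higher and 107 lower in heat shock. In diauxic shift 128 of them were higher and 144 lower. The same counts over all branches are not given here, so these splits are not read as particular to the unclassified. On this scale branches in general lay below rich media. Among all those with at least 50 reads in the higher condition, the median log2 ratio was −0.67 in heat shock and −0.54 in diauxic shift.

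With at least 50 reads in the higher condition, 29 branches could be compared for heat shock. Of these, 9 were more than 2-fold higher, beside 21.2% of all 1640 branches that met the same limit, and 9 were more than 2-fold lower, beside 41.8%. For diauxic shift 11 of 35 were higher, beside 21.3% of 1814, and 10 were lower, beside 43.8%. The median log2 ratio was −0.31 against −0.67 over all branches in heat shock, and −0.10 against −0.54 in diauxic shift. Without replicates none of these ratios carries a test.

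Most single ratios went the way of the listed site in the same intron. In heat shock the listed site lay on the same side of 1 in 12 of 12 branches that passed 2-fold and had listed reads, and was itself past 2-fold in 7. In diauxic shift these counts were 12 and 10 of 13. The sce3 branch had 69, 23 and 11 reads, a heat shock ratio of 18.8 (9.89 to 39.4) beside 4.73 at the listed site. Wdr7 had 1, 8 and 71 reads beside 410, 450 and 2638 at its listed site. Lat1, a pyruvate dehydrogenase subunit, had 3, 1 and 50 beside 238, 223 and 1325, so both were high in rich media at each site.

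The exception was atg8, an autophagy protein, named after its values were seen. Its branch 4 bases inside had 28 reads in heat shock, 26 in diauxic shift and 51 in rich media. In diauxic shift this was 0.496 times rich media (0.297 to 0.811), where the listed site was 3.46 times. Its inner site took 11.3% of both sites over all conditions (108 reads beside 847), the highest value at 4 bases inside among introns with at least 10 inner reads.

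Other branches past 2-fold in diauxic shift were SPBC2A9.14 with 9, 51 and 6 reads and a ratio of 8.28 (3.55 to 23.6), beside 15.3 at the listed site, and duc1 with 0, 52 and 9 reads (5.62, 2.75 to 13). In heat shock they included rpl4301 with 118, 71 and 74 reads (4.78, 3.55 to 6.49), beside 2.81 at the listed site. Only 1 of the 29961 listed reads of rpl4301 was at the same branch point, so the compared reads also differ in branch point. The branch of ins1, an INSIG protein gene, was low in both conditions, with 6, 11 and 60 reads. Mis14 was also low in both, at 0.123 times (0.0709 to 0.199) in heat shock and 0.0962 times (0.068 to 0.133) in diauxic shift, beside 0.156 and 0.136 at the listed site.

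Cytoplasmic ribosomal protein genes held 108 unclassified branches in 44 of 75 genes with listed introns (58.7%), against 723 of 2330 such genes overall (31%). Their reads were 994 in heat shock, 1734 in diauxic shift and 1043 in rich media, 2.86 times rich media in heat shock (2.62 to 3.12) and 1.62 times in diauxic shift (1.5 to 1.75). At the listed sites of the same genes the values were 1.19 times (1.18 to 1.2) and 1.51 times (1.5 to 1.52). The gene rps13 alone gave 2195 of the 3771 unclassified reads. Without it the unclassified reads were 3.32 times rich media in heat shock (2.93 to 3.76) and 1.14 times in diauxic shift (1.01 to 1.29), beside 1.03 (1.02 to 1.04) and 0.952 (0.944 to 0.959) at the listed sites. With and without rps13, the unclassified reads thus stood further above rich media than the listed ones in heat shock. The 75 introns of these genes with lariat reads had 66667, 260582 and 168224 listed reads, and the part of this depth in the 58.7% was not tested.

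Splicing factor genes held 29 branches in 18 of 59 genes (30.5%), close to the 31% of all genes. Their reads were 101, 81 and 112, which was 2.71 times rich media in heat shock (2.05 to 3.57) and 0.704 times in diauxic shift (0.522 to 0.945), beside 1.4 and 0.806 at the listed sites. Snu13, a protein of the U4/U6 and box C/D particles, had 36, 12 and 6 reads 4 bases inside its first intron, beside 5071, 2639 and 1352 at the listed site. The U6 snRNP gene lsm3 had 13, 24 and 12, and lsm5, in contact with no listed intron, had 13, 15 and 7 at its largest branch. That lsm5 branch started 4 bases inside a reference intron (chrII:3301329-3301429, plus strand).

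Branch points joined to shifted sites held the usual branch motif more often than those of the remaining unclassified branches. The motif was searched in 4 forms on the branch strand: CTAAC came first, then CTGAC with a G in the middle, then TTAAC with a T in front, and last TTGAC with both changes, with the adenosine before the last C as the branch point. It was present in 55.6% of the 801 shifted branches and in 21.9% of the other 570, and in 41.6% of all unclassified (39 to 44.2), against 46.8% of annotated, 24.3% of alternate and 30.2% of unannotated branches. A T stood 2 bases before the branch point in 92% of unclassified and 87.8% of annotated branches.

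The 5′ sites differed more. All 17799 branches begin with GT, but a G as the fifth base was found in 33% of unclassified sites (30.5 to 35.5), in 17.9% of those 4 bases inside and in 50.2% of those not shifted, against 94.5% of annotated sites. The form GTANGT was found in 99 unclassified branches (7.22%) and in 65.3% of annotated ones. In rps13, shown above, the listed site reads GTATGT and the site 4 bases on reads GTTAAA.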

How the data were processed

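The authors deposited branch counts, whole reads per 5′ site and branch point, summed over the libraries of a condition (long and short gel together). The other deposited values, positions, lengths and library reads, were made by the authors. Which aligner was used is not given in the sources. The submitters' processing notes name ASM294v2 as genome build; all 17799 branches had GT and A on ASM294v3, which gave sequences, gene names for all 796 genes and 5354 reference introns. Of 4701 listed introns 4645 were placed.

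In 80 branches (2 unclassified), the condition counts did not add up to the deposited total (423 reads against 419512). The condition counts of these branches were not used, and they entered sums over all conditions only. Other branches of their introns stayed in the sums by condition. Comparisons by condition with the listed site of the same intron left out such introns. No deposited column of per-sample values was left unused (0). Ratios were scaled by annotated branch reads (429313 in heat shock, 1322943 in diauxic shift, 1287956 in rich media), with exact 95% counting intervals, and shares carry Wilson intervals. Sums stand for 4 libraries each, so the planned ratios have no test. A ratio was called past 2-fold with at least 50 reads in the higher condition. Reads at a listed site include all classified branches from it that end in the intron.

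Named were the 10 branches with the most reads, the 5 largest and 5 smallest ratios per condition, the 5 shortest and 5 longest with at least 10 reads, the 5 genes with the most branches, the 4 largest per position class and up to 4 of the ribosomal protein (every rpl, rps or rpp with a number) and splicing factor lists. The branches and lists were chosen with earlier results of these data known. Computations used R 4.3.3 with edgeR 4.0.16 (TMM scaling only) and Python 3.11.15 with SciPy 1.17.1, NumPy 2.4.6, matplotlib 3.10.9 and pandas 2.3.3, and were checked on simulated data.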

Additional observations from a re-analysis of the deposited data

How the results depend on the processing

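No paired analysis was possible because the lists give 1 sum per condition, and leaving out replicates was not run for the same reason. Of 47 alternatives to the main values, 20 stayed within the limits set, 26 moved and 1 reversed. Scaling by library reads shifted every log2 ratio by 0.91 for heat shock and by 2.47 for diauxic shift, whereas TMM scaling over annotated introns by 0.35 and 0.88. For the summed reads of heat shock (1.26), the value was 2.36 by library reads, 1.61 by TMM, 1.48 without sac3, 1.21 with at least 10 reads, 1.5 with 2 bases of slack in matching, 1.11 in shifted branches and 1.35 without sac3 and gna1. For diauxic shift (1.42) these were 7.9, 2.61, 1.29, 1.47, 1.71, 1.13 and 0.84, so the direction turned without sac3 and gna1. By library reads, 4 branches were past 2-fold lower in heat shock (9), and in diauxic shift 26 were higher (11) and 1 lower (10), or 6 lower by TMM.

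At least 10 reads were held by 274 branches, with a median distance of 89 bases, 78.1% shifted and 53.6% in the motif. Of all 1371, 92% had a T 2 bases before the branch point. The number of branches was 1326 with slack, 1542 with exon skips taken only at listed branch points and 1396 with only the listed pairs of introns removed. The share 4 bases inside (0.468%) was 0.397% without rps13 and 0.421% at branch points of the listed site. Against rich media it was then 1.75 times in heat shock at those branch points and 0.866 times in diauxic shift without rps13. The alternatives without sac3 and gna1, within the shifted class, with listed intron pairs, for ribosomal protein genes without rps13 (3.32 and 1.14 in place of 2.86 and 1.62) and on the share 4 bases inside were chosen after seeing the data.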
